A study of Mus musculus with 24 samples.

Results

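Lung was compared with stomach, both of which develop from the foregut, in mice carrying a bacterial artificial chromosome (BAC) with the human gene SENCR. The comparison used 6 of the 24 RNA sequencing libraries of the study, namely lung replicates 1 to 3 and stomach replicates 1 to 3, chosen by the tissue named in their labels. Each library was labelled as total RNA of one organ of SENCR-BAC mice, described as biological triplicates; age, sex, strain and the animals shared between libraries were not given in the sources used here, and no animals without the transgene were labelled, so every group carries it. The other 18 libraries, 3 each of aorta, brain, heart, kidney, liver and spleen, entered the fit and served as a background. Where nothing ties a library to its own animal, p-values measure only the spread between these libraries.

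In the embryo the foregut tube is patterned along its length, and the lung buds from its ventral side under signals from the surrounding mesoderm, while the stomach forms from a widening of the tube behind it. NKX2-1 is the homeobox factor that marks the lung epithelium from its first buds. BARX1 is a homeobox factor of the stomach mesenchyme, known from mouse for its part in stomach formation. The adult lung is rich in capillary endothelium and resident white blood cells, and the adult stomach wall holds glandular epithelium with mucus, acid and hormone cells over thick layers of smooth muscle.

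Reads had been aligned to a human build, so that a mouse gene was measured only through stretches alike in both species. Values are FPKM as deposited by the authors, that is, fragment numbers relative to gene length and to all assigned fragments of a library. They were compared between organs within a gene, not between genes. Lung libraries held 461450 to 496563 assigned reads and stomach libraries 269941 to 332406, numbers worked out from the smallest increments seen in each gene's FPKM. Replicates correlated across genes at r = 0.954 to 0.962 in lung and 0.944 to 0.949 in stomach on the log2(FPKM + 1) scale.

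The marker genes separated the organs as labelled. NKX2-1 had 216, 207 and 225 FPKM in lung, against 0, 0 and 0 in stomach, with 739 reads in the lung libraries together and none in stomach. It was at least 153-fold higher in lung when stomach is set at a floor of 3 reads over its libraries (difference 7.76 ± 0.17 on the log2(FPKM + 1) scale, standard error; limma adjusted p = 1.33e-17). Among the other 6 tissues NKX2-1 averaged at most 0.696 FPKM, in brain. BARX1 had 0, 0 and 0 FPKM in lung, against 9.05, 35.8 and 22.1 in stomach, from 0 reads in lung and 31 in stomach. It was lower in lung (difference -4.35 ± 0.28, limma adjusted p = 6.63e-10), which puts stomach at least 16.2-fold higher against the same floor, and BARX1 had no read in the other 6 tissues. Its standard error pools all 24 libraries, and those with no read make it small beside the spread of the stomach values.

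The start regions of these markers are shown because they name the organs compared. They are the mouse RefSeq windows from 250 bases before to 50 bases after the transcription start on GRCm38.p6, printed on the gene's strand, with GC boxes (GGGCGG on either strand, overlapping matches joined) in capitals. Nkx2-1 lies on the minus strand at chr12:56536859-56537158 and Barx1 on the plus strand at chr13:48662786-48663085.
Nkx2-1: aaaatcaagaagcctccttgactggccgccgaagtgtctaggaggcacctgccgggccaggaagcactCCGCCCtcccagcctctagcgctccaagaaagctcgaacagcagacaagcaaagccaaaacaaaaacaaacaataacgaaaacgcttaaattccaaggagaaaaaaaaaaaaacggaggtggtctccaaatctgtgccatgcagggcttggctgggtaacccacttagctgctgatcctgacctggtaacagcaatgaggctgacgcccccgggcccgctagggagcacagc
Barx1: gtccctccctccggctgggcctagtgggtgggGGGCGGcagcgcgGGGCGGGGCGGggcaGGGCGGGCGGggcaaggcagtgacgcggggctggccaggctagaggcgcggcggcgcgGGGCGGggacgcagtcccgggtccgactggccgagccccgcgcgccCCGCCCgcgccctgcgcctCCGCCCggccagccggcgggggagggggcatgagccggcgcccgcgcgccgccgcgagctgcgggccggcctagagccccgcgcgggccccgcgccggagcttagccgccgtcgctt
The Barx1 window held 8 matches to the GC box and 84.7% G and C, against 1 match and 53.7% in the Nkx2-1 window. Neither window held TATAAA or CCAAT on either strand. A GC box occurred in 35.7% of 32851 RefSeq windows, TATAAA in 13.6% and CCAAT in 37.4%. Windows were matched for 3212 of the 4260 genes tested, 346 of the 483 called higher and 177 of the 241 called lower, some genes having several. A GC box stood in 62.9% of 490 windows of genes higher in lung and 65.6% of 247 of genes lower in lung, against 65.4% of 4327 windows of all genes tested. TATAAA occurred in 9.18% and 6.48% of these windows, against 7.26% for all genes tested, and CCAAT in 31.0% and 39.7%, against 35.8%. The called genes thus held a GC box about as often as the genes tested. These are counts of letters and say nothing of a factor's binding.

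A gene was called at a limma adjusted p (Benjamini-Hochberg over 4260 genes) under 0.05 and a difference of at least 1 in log2(FPKM + 1), lung minus stomach. Of 4260 genes, 724 (17%) were called, 483 (11.3%) higher in lung and 241 (5.66%) lower. Genes tested had at least 1 FPKM in at least 3 of the 24 libraries. A gene read almost only in lung or only in stomach passed this filter through that organ, which largely fixed its direction. Shares of list members called, set beside the shares of all genes, are therefore only descriptions. The 3 lung libraries did not overlap the 3 stomach libraries for 1457 genes (34.2%), and 450 of the genes called higher and 230 of those called lower were among them. At least 20 reads in the higher organ stood behind 420 of the 483 and 206 of the 241. The excess of higher calls depended on scaling, since quantile normalization gave 363 higher and 310 lower. Stomach libraries were shallower. With every library of any tissue above 269941 reads thinned to that number, 435 of 4279 genes were called higher and 242 lower. When only the 6 lung and stomach libraries entered the filter and the fit, 418 of 2975 genes were called higher and 225 lower, of which 594 were also among the 724. With the main filter and the spread of those 6 libraries alone, 325 genes were called higher and 181 lower. Of the genes described below as higher or lower, ACTA1, ACTA2, ACTN2, ATP2A1, EDNRB, ELK3, ENG, EPAS1, HHIP, HOXA6, HOXC5, IER5, ITGB1, ITGB1BP2, KLF4, KLF5, KRT14, MYH2, MYH3, PDE5A, PRKG1, RFX3, SHH, TBX3 and TUBB were then not called. A pseudocount of 5 ended the calls of CLDN5, FGFR3, GRHL2, IKZF1, KCNMA1, KRT6A, NKX2-2, PAX6, PDLIM3, POU2F2, RSPO1, SLC4A2, TCF7 and WNT7A, besides some already named. A pseudocount of 0.1 ended those of CEBPA, ESRP1, FGFR2, HOXA7, HOXB4, HOXC4, NR4A2, PPARG, SFN, SFRP1 and SNAP25, besides some already named.

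**Figure D1:**
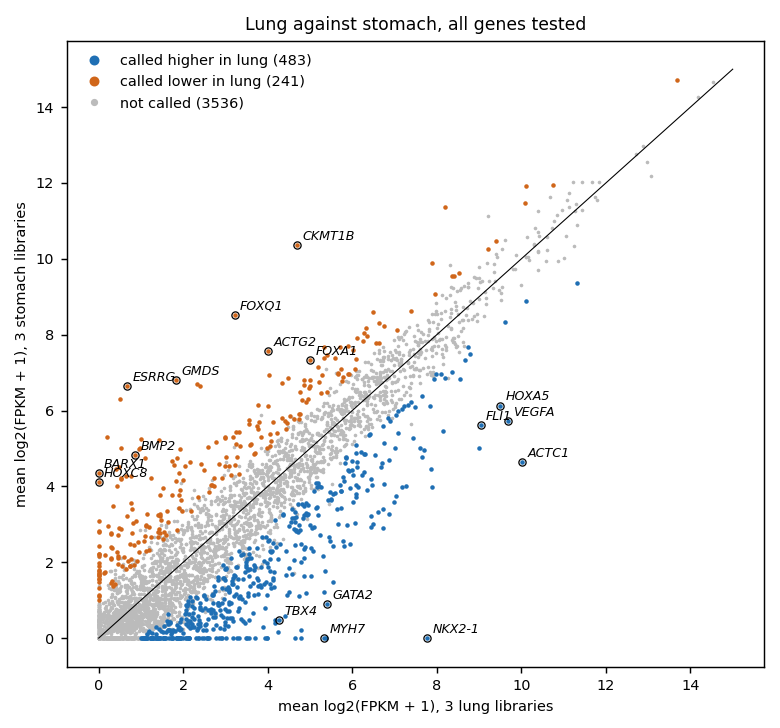
Mean log2(FPKM + 1) of the 3 lung libraries (horizontal axis) against that of the 3 stomach libraries (vertical axis) for 4260 genes, with the line of equality. Blue points are the 483 genes called higher in lung, orange points the 241 called lower and grey points the rest; NKX2-1 lies far to the right on the lower edge, and CKMT1B and FOXQ1 stand high above the line.

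Genes with the largest differences were named only if the organs did not overlap and the higher organ had at least 20 reads. Those higher in lung were led by NKX2-1 and included genes of several cell types. ADRB1, the beta-1 adrenergic receptor, had 41.4, 36.4 and 44.4 FPKM in lung, against 0, 0 and 0 in stomach (difference 5.38 ± 0.67, limma adjusted p = 4.8e-06). PRDX6, a peroxiredoxin known for its part in the turnover of surfactant lipid, had 18, 31 and 33.2 FPKM in lung, against 0, 0 and 0 in stomach (difference 4.78, adjusted p = 0.000144). LIMCH1, an actin-binding protein that activates nonmuscle myosin, had 16.7, 20.4 and 16.5 FPKM in lung, against 0.362, 0 and 0 in stomach (difference 4.08, adjusted p = 5.59e-08). All 3 lung libraries lay above all stomach libraries for these genes, which the naming rule required. ADRB1 and PRDX6 had no read in stomach. ADCY8, a calcium-stimulated adenylyl cyclase, had 11.5, 14.5 and 19.7 FPKM in lung, against 0, 0 and 0 in stomach (difference 3.99, adjusted p = 1.88e-08) and a mean of 12.8 FPKM in brain. ITGB1, the beta-1 integrin subunit of matrix receptors, had 24.3, 71.6 and 53.2 FPKM in lung, against 0, 0 and 20.3 in stomach. Its stomach values were uneven, 2 of the 3 being 0, and its call (difference 4.06, adjusted p = 0.00116) ended when the 6 libraries alone gave the spread (adjusted p = 0.124).

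**Figure D2:**
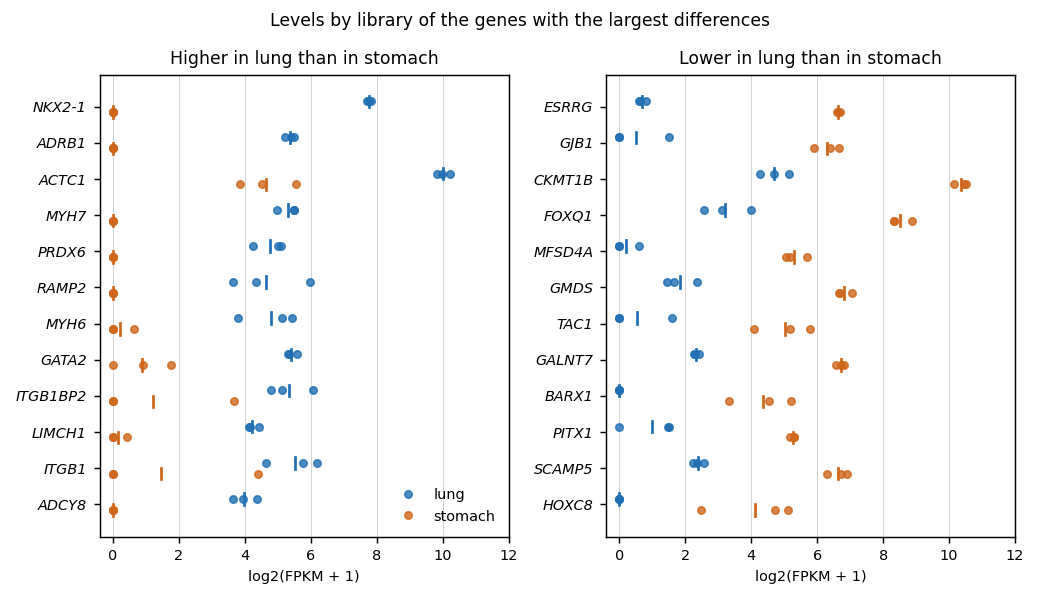
Values by library, as log2(FPKM + 1), of 12 called genes in each direction. They have the largest differences among genes with no overlap between organs and at least 20 reads in the higher organ. Blue points are lung, orange points stomach and vertical bars the means. NKX2-1, ADRB1, MYH7, PRDX6, RAMP2 and ADCY8 lie at 0 in all stomach libraries, and BARX1 and HOXC8 at 0 in all lung libraries.

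Striated muscle genes made up several of the largest differences. ACTC1, cardiac alpha actin, had 1192, 909 and 1013 FPKM in lung, against 22.3, 45.7 and 13.4 in stomach (difference 5.37 ± 0.50, limma adjusted p = 1.24e-07), so that its lung mean was 38.3-fold higher. MYH7, the beta cardiac and slow muscle myosin heavy chain, had 44.5, 44 and 30.6 FPKM in lung, against 0, 0 and 0 in stomach (difference 5.33, adjusted p = 2.53e-11). MYH6, the alpha cardiac heavy chain, had 42, 12.9 and 34.3 FPKM in lung, against 0.575, 0 and 0 in stomach (difference 4.57, adjusted p = 1.12e-08). The lung means were 2.15%, 2.32% and 0.544% of the heart means for ACTC1, MYH7 and MYH6. ITGB1BP2, the muscle protein melusin, had 33.9, 26.7 and 66.5 FPKM in lung, against 0, 11.8 and 0 in stomach (difference 4.11, adjusted p = 0.000334), but not with the spread of the 6 libraries alone (adjusted p = 0.0789). The myosin heavy chains, like the actins, are near-identical paralogues whose reads the counting could split, so their separate values are uncertain. Of 15 tested members of a cardiac muscle list, 4 were higher in lung, against 11.3% of all genes tested. The summed FPKM of the whole list was 978 to 1294 in lung and 14.1 to 56.9 in stomach, most of it from ACTC1. Without ACTC1 the sums were 102.6, 68.6 and 83.6 in lung, against 3.75, 11.2 and 0.731 in stomach. The cardiac troponin genes TNNI3 and TNNC1 had no read in either organ, although TNNC1 averaged 102 FPKM in heart. ACTN2, the sarcomeric alpha-actinin, was the fourth member called (difference 1.24, adjusted p = 0.0361), and it was not called without lung replicate 1 (adjusted p = 0.181), without lung replicate 3 (adjusted p = 0.0803), without stomach replicate 1 (adjusted p = 0.208) or without stomach replicate 3 (adjusted p = 0.0836). What part heart tissue had in the lung values was not tested.

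Skeletal muscle genes varied between libraries of the same organ. The summed FPKM of a skeletal muscle list was 130.1, 66.3 and 200.1 in lung, against 28, 120.2 and 1.34 in stomach. MYH2, a fast heavy chain, had 21.6, 12.5 and 32.2 FPKM in lung, against 0.558, 11.8 and 0.605 in stomach (difference 2.77 ± 0.54, limma adjusted p = 0.000714). MYH4 and MYH13, the fast IIb and extraocular heavy chains, were not called (differences 1.57 and 1.69, adjusted p = 0.139 and 0.151). MYH13 had 49.2, 13.4 and 31.2 FPKM in lung, against 13.1, 48.2 and 0 in stomach. Stomach replicate 2 was the highest stomach library for each of these 3 myosins, and it overlapped the lung range for MYH4 and MYH13. Of 7 members tested, 4 were higher in lung (MYH2, MYH3, ATP2A1 and ACTA1), against 11.3% of all genes. Without stomach replicate 2, 7 were higher, and 1 when only the 6 libraries entered filter and fit. MYH3 would not have passed the filter without its lung values. ACTA1, skeletal alpha actin (adjusted p = 0.0372), was not called without lung replicate 3 (adjusted p = 0.247) or without stomach replicate 3 (adjusted p = 0.263).

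**Figure D3:**
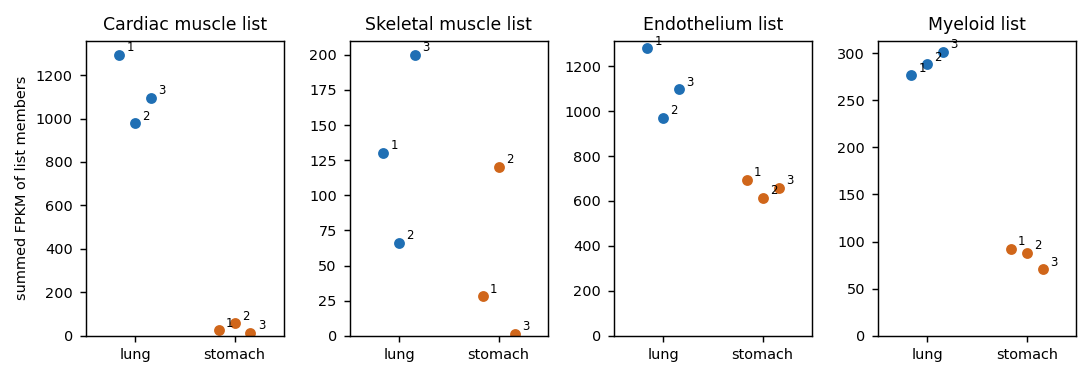
Summed FPKM of all members of the cardiac muscle, skeletal muscle, endothelium and myeloid lists in each lung (blue) and stomach (orange) library, numbered by replicate, each panel on its own vertical axis from 0. Lung and stomach are apart in the cardiac and myeloid panels, and in the endothelium panel they are apart with FLI1 included but not without it, and stomach replicate 2 at 120.2 lies within the lung range of the skeletal panel.

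Markers of the lung epithelium and its cilia were few in the table, and those tested were mostly higher in lung. Of 26 genes on a lung epithelium list 5 were in the table and 4 were tested. NKX2-1, CAV1, CEBPA and HHIP were all called higher, against 11.3% of all genes. NKX2-1 passed the filter only through lung. CAV1 is also on the endothelium list and CEBPA on the myeloid list. CEBPA averaged 66.9 FPKM in lung, below its means of 467 in liver and 79.8 in aorta. HHIP averaged 3.66 FPKM in lung, below its mean of 10.9 in aorta. Surfactant protein genes were not analysed here. CAV1, caveolin-1 of alveolar type I and endothelial cells, had 33.5, 65.8 and 42.6 FPKM in lung, against 1.02, 8.94 and 6.61 in stomach (difference 3.12 ± 0.56, limma adjusted p = 0.000299). CEBPA, a factor of alveolar type II cell maturation and of myeloid cells, had 61.8, 73.5 and 65.5 FPKM in lung, against 11.7, 14.9 and 12.7 in stomach (difference 2.27, adjusted p = 0.00119). HHIP, a hedgehog inhibitor, was at 2.18 to 5.67 FPKM in lung and 0.373 to 2.42 in stomach, and its call (difference 1.07, adjusted p = 0.0355) ended without lung replicate 2 (adjusted p = 0.183), without lung replicate 3 (adjusted p = 0.0626), without stomach replicate 1 (adjusted p = 0.0861) or without stomach replicate 3 (adjusted p = 0.186). Of 3 ciliated cell genes tested, TPPP3, a tubulin-binding protein, and RFX3, a ciliary transcription factor, were higher in lung, against 11.3% of all genes. TPPP3 had 1.97, 9.16 and 6.61 FPKM in lung, against 0, 0 and 0 in stomach (difference 2.61, adjusted p = 8.62e-05), and RFX3 differed by 1.59 (adjusted p = 0.00626). TPPP3 rested on 19 reads and passed the filter only through lung. RFX3 averaged 8.41 FPKM in lung, below its mean of 14.3 in brain. TUBB4B, the third, differed by -0.05 (adjusted p = 1). The ciliated cell list summed to 95.7 to 152 FPKM in lung and 96 to 122 in stomach, so the organs overlapped. Without TUBB4B the sums were 9.72, 20.7 and 18.1 in lung, against 1.31, 4.76 and 1.21 in stomach. FOXJ1 and CCDC39, with 4 reads each in lung and 0 in stomach, were not tested. In whole organs, fewer cells of a type and less RNA per cell cannot be told apart, here or in the groups that follow.

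Gastric epithelial genes were lower in lung, and their members cover acid secretion, anion transport and mucin glycosylation. Of 46 list genes, 10 were in the table, and all 4 tested were called lower, against 5.66% of all genes. SLC26A9 and SLC4A2 passed the filter only through stomach, which largely fixed their direction. The summed FPKM of the list was 4.40 to 5.71 in lung and 218.7 to 246.9 in stomach. ESRRG, an orphan nuclear receptor known from acid-secreting parietal cells, had 0.541, 0.754 and 0.518 FPKM in lung, against 95.3, 97.6 and 102 in stomach, and its stomach mean was 163-fold higher (difference -5.96 ± 0.31, limma adjusted p = 3.49e-11). GALNT7, an enzyme of mucin-type O-glycosylation, had 4.34, 3.77 and 3.89 FPKM in lung, against 112, 105 and 93.6 in stomach (difference -4.39, adjusted p = 4.89e-06). SLC26A9, an anion transporter of gastric surface cells, had 0.448, 0.832 and 0 FPKM in lung, against 20.5, 28 and 18.4 in stomach (difference -4.05, adjusted p = 1.77e-11). SLC4A2, the chloride-bicarbonate exchanger of the parietal cell's basal side, was low in both organs, 0.375, 0.349 and 0 FPKM in lung, against 5.33, 2.6 and 2.57 in stomach (difference -1.82, adjusted p = 0.000334). The stomach values of ESRRG lay within a narrow range, and no lung library of these 4 genes reached a stomach library. For ESRRG and GALNT7 the naming rule required this.

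Other genes with the largest differences in this direction make sugar precursors or lie in membranes, mitochondria and vesicles. GMDS, which makes the precursor of GDP-fucose for glycans, had 4.15, 1.73 and 2.18 FPKM in lung, against 100.4, 103 and 131 in stomach (difference -4.97 ± 0.49, limma adjusted p = 2.65e-07). MFSD4A, a membrane transporter of the major facilitator family, had 0, 0.496 and 0 FPKM in lung, against 32, 34.8 and 50.2 in stomach (difference -5.10, adjusted p = 6.63e-10). GJB1, the gap junction protein connexin 32, had 0, 1.86 and 0 FPKM in lung, against 58.4, 81.9 and 99.1 in stomach (difference -5.80, adjusted p = 6.3e-09), below its mean of 455 FPKM in liver. These genes were at or near 0 in lung, where GJB1 had 2 reads and MFSD4A 1. CKMT1B, ubiquitous mitochondrial creatine kinase, had 34.4, 24.8 and 18.3 FPKM in lung, against 1446, 1131 and 1385 in stomach (difference -5.66, adjusted p = 3.23e-11), and a near-identical copy, CKMT1A, makes the value uncertain because the counting could split reads between them. SCAMP5, a secretory vesicle membrane protein, had 4.96, 4.1 and 3.7 FPKM in lung, against 119, 103 and 77.3 in stomach (difference -4.25, adjusted p = 3.76e-08).

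Transcription factors of the stomach were lower in lung in 6 of 9 tested members, against 5.66% of all genes. They were BARX1, ESRRG, FOXQ1, SOX21, SIX2 and KLF5. BARX1 is an organ marker here and passed the filter only through stomach, and ESRRG is also on the gastric epithelium list. FOXQ1, a forkhead factor that in mouse controls the mucin of gastric surface cells, had 4.89, 7.57 and 14.8 FPKM in lung, against 321, 322 and 471 in stomach, with a stomach mean 40.8-fold higher (difference -5.30 ± 0.62, limma adjusted p = 2.34e-06). SOX21, a SOX factor of the anterior foregut epithelium in mouse, had 0.741, 0 and 0.71 FPKM in lung, against 12.9, 23.7 and 17.7 in stomach (difference -3.69, adjusted p = 1.42e-06). SIX2, known from the mesenchyme of the pylorus and from kidney progenitors, had 1.8, 0.837 and 0 FPKM in lung, against 7.11, 10.01 and 12.3 in stomach (difference -2.62, adjusted p = 2.58e-05). KLF5, a zinc finger factor of proliferating epithelium, had 4.91, 1.71 and 8.82 FPKM in lung, against 26.1, 25.6 and 18.9 in stomach (difference -2.17, adjusted p = 0.00669), and its adjusted p was 0.0538 without lung replicate 2. PITX1, a homeobox factor known from hindlimb and pituitary, was also among the largest differences, with 1.85, 0 and 1.78 FPKM in lung, against 38, 38.6 and 34.9 in stomach (difference -4.26, adjusted p = 6.63e-10) and no read in the other 6 tissues.

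Hormone cell factors were lower in lung in 5 of 6 tested members of a gastric endocrine list, against 5.66% of all genes. INSM1, a zinc finger factor of endocrine differentiation, had 0, 1.42 and 0 FPKM in lung, against 19.2, 10.6 and 16.9 in stomach (difference -3.59 ± 0.35, limma adjusted p = 2.37e-07). ISL1, a LIM homeobox factor of endocrine cells and neurons, had 1.52, 2.82 and 0 FPKM in lung, against 29.6, 21.1 and 27.7 in stomach (difference -3.66, adjusted p = 1e-06). PAX6 and NKX2-2 were lower in lung, with differences of -1.58 and -1.98 (adjusted p = 8.17e-05 and 7.14e-05), from 14 and 7 reads in stomach. TAC1, the precursor of substance P, which is made by enteric neurons, had 2.04, 0 and 0 FPKM in lung, against 16.1, 53.9 and 34.9 in stomach (difference -4.48, adjusted p = 8.13e-08), below its mean of 256 FPKM in brain. Of 19 enteric neuron and glia genes tested, 4 were lower in lung (TAC1, ISL1, ELAVL4 and SNAP25), against 5.66% of all genes. The T-box factors TBX2 and TBX3 were higher, a share near the 11.3% of all genes, TBX3 not without lung replicate 2 (difference 0.88).

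**Figure D4:**
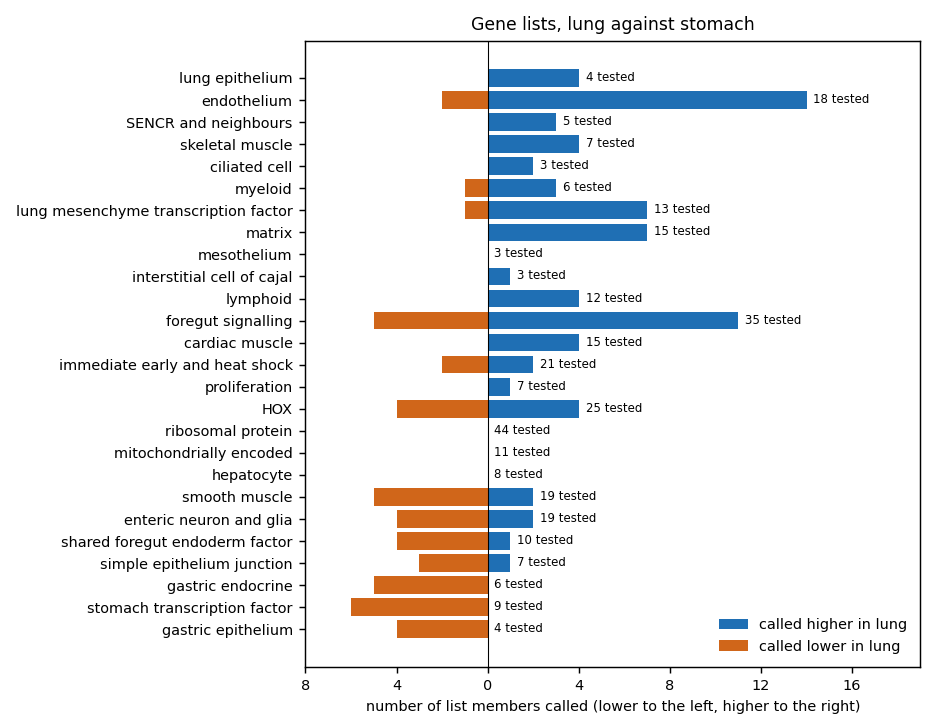
Number of members of each gene list called higher in lung (blue, to the right) and lower in lung (orange, to the left), for lists with at least 3 members tested, the number tested beside each bar. Gastric epithelium, gastric endocrine and stomach transcription factor lists have calls to the left alone, and the endothelium list has 14 to the right and 2 to the left.

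On a list of lung mesenchyme transcription factors, 7 of 13 tested members were higher in lung and 1 was lower, against 11.3% and 5.66% of all genes. The 7 include NKX2-1, which marks the lung epithelium and is an organ marker here. NKX2-1, TBX4 and FOXF2 passed the filter only through lung, which largely fixed their direction. TBX4, a T-box factor of the lung and hindlimb fields, had 11.2, 28.2 and 19.4 FPKM in lung, against 1.68, 0 and 0 in stomach (difference 3.80 ± 0.30, limma adjusted p = 1.41e-08) and no read in the other 6 tissues. TBX2, its neighbour in the genome and a repressor of the same family, had 94.7, 104 and 117 FPKM in lung, against 9.95, 6.13 and 4.32 in stomach (difference 3.83, adjusted p = 1.39e-05). FOXF2, a forkhead factor of foregut mesenchyme, had 10.6, 14 and 10.2 FPKM in lung, against 0, 0 and 3.02 in stomach (difference 2.97, adjusted p = 1.61e-06). The lung and stomach libraries were apart for all 3 genes. TBX3 was low, at 0.433 to 2.10 FPKM in lung and 0 in stomach, and its difference of 1.13 was 0.88 without lung replicate 2, under the minimum of 1. HOXA5, HOXB4 and NKX2-1 were also called higher. FOXP1 differed by 0.53 (adjusted p = 0.16) and FOXP2 by -1.12 (adjusted p = 0.0707).

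HOX genes lie in 4 clusters and give cells their position along the body axis. Of 25 tested, HOXA5, HOXA6, HOXA7 and HOXB4 were higher in lung, and HOXC4, HOXC5, HOXC6 and HOXC8 were lower. These 4 and 4 stand beside 11.3% of all genes called higher and 5.66% called lower. HOXA5, known in mouse for its part in lung branching and maturation, had 675, 755 and 726 FPKM in lung, against 83.9, 75.7 and 51 in stomach (difference 3.37 ± 0.66, limma adjusted p = 0.0007). HOXB4 had 94.2, 86.5 and 78.8 FPKM in lung, against 8.54, 9.02 and 7.4 in stomach (difference 3.23, adjusted p = 0.00633). HOXA7 had 23.6, 33 and 28.8 FPKM in lung, against 8.48, 4.48 and 1.84 in stomach (difference 2.47, adjusted p = 0.00272). Both were apart in the 2 organs by library, but HOXB4 was not called under TPM scaling (adjusted p = 0.0586), which ended no other HOX call. HOXC8 had 0, 0 and 0 FPKM in lung, against 25.5, 33.6 and 4.6 in stomach (difference -4.11, adjusted p = 3.13e-06), and HOXC6 had 0, 0 and 2.86 FPKM in lung, against 15.7, 37.3 and 10.2 in stomach (difference -3.62, adjusted p = 0.000156). HOXC4 had 10.1, 6.85 and 10.6 FPKM in lung, against 68.3, 37.1 and 29.9 in stomach (difference -2.11, adjusted p = 0.00102). HOXA6 rested on 8 lung reads and 1 stomach read. Stomach replicate 3 was the lowest stomach library for all 4 of these HOXC genes. HOXC5 (difference -2.31, adjusted p = 0.0169) was not called without lung replicate 2 (0.0869), stomach replicate 1 (0.054) or stomach replicate 2 (0.117), and HOXC4, HOXC5 and HOXC6 overlap in the genome, so that their reads may not be separable. HOXA9, HOXA10, HOXA11, HOXC9, HOXC10 and HOXD11 had no read in either organ.

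**Figure D5:**
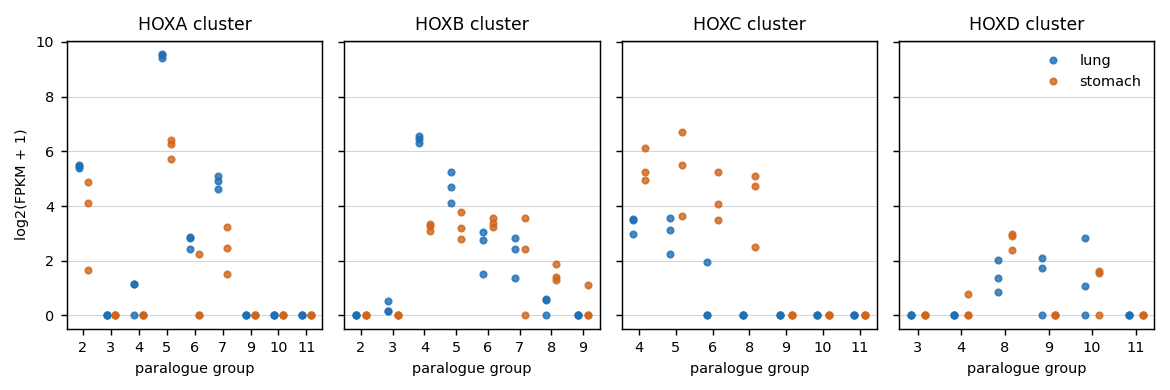
Values by library, as log2(FPKM + 1), of HOX genes in the 4 clusters, ordered by paralogue group from head to tail, lung in blue and stomach in orange. HOXA5 and HOXB4 are higher in lung, HOXC4 to HOXC8 are lower in lung, and groups 9 to 11 of HOXA and HOXC lie at 0 in both organs.

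Some epithelial factors used along the whole foregut were lower in lung. Of 10 tested, FOXA1, SOX9, GRHL2 and KLF5 were lower in lung, against 5.66% of all genes. IRX3 was higher, a share near the 11.3% of all genes called higher. Without lung replicate 1 or stomach replicate 2, 2 members were higher. FOXA1, a pioneer forkhead factor of endoderm, had 42.9, 23 and 30.5 FPKM in lung, against 167, 140.2 and 174 in stomach (difference -2.32 ± 0.32, limma adjusted p = 1.69e-05). Its paralogue FOXA2 had 29.1, 39.5 and 37.7 FPKM in lung, against 58.3, 44.8 and 71.3 in stomach and was not called (difference -0.69, adjusted p = 0.236). SOX9, a factor of progenitor cells and cartilage, had 0, 0 and 0 FPKM in lung, against 7.82, 4.59 and 5.65 in stomach (difference -2.79, adjusted p = 1.34e-05). GRHL2, a regulator of epithelial junction genes, was lower in lung (difference -1.45, adjusted p = 3.52e-05). IRX3, an Iroquois homeobox factor, had 21.5, 13.6 and 16.2 FPKM in lung, against 1.21, 2.13 and 1.31 in stomach (difference 2.82, adjusted p = 2.49e-05). SOX2, a factor of the anterior foregut, was at 4.13 to 4.81 FPKM in lung and 2.72 to 8.85 in stomach, ranges that overlapped (difference -0.03 ± 0.27, adjusted p = 1). Both squamous keratins tested were lower in lung, and neither would have passed the filter without its stomach values. KRT14, of basal squamous cells, had 2.65, 0 and 2.54 FPKM in lung, against 35.5, 31.3 and 4.53 in stomach (difference -2.99, adjusted p = 0.000167), again lowest in stomach replicate 3, and not called with the spread of the 6 libraries alone (adjusted p = 0.114). KRT6A rested on 5 stomach reads and none in lung (difference -1.66, adjusted p = 4.35e-05).

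Endothelial genes were higher in lung in 14 of 18 tested members, and MECOM and KLF4 were lower, against 11.3% and 5.66% of all genes. The 14 were TEK, ERG, FLI1, ETS1, LMO2, GATA2, RAMP2, CAV1, BMPR2, EPAS1, EDNRB, ENG, ELK3 and CLDN5. Without each library in turn, 11 to 14 members were higher. RAMP2, EPAS1 and ENG would not have passed the filter without their lung values. GATA2, a factor of endothelium and blood, had 39.6, 38.9 and 46.7 FPKM in lung, against 0.905, 2.39 and 0 in stomach (difference 4.52 ± 0.49, limma adjusted p = 1e-06). RAMP2, which lets the calcitonin receptor-like receptor respond to adrenomedullin, had 11.5, 61.6 and 19.3 FPKM in lung, against 0, 0 and 0 in stomach (difference 4.65, adjusted p = 3.39e-07). TEK, the angiopoietin receptor, had 18.6, 12.7 and 20.5 FPKM in lung, against 0, 1.26 and 0 in stomach (difference 3.77, adjusted p = 2.24e-07). The ETS factors ETS1 and ERG followed, ERG with 3.45, 8.01 and 9.25 FPKM in lung, against 0, 0 and 0 in stomach (difference 2.89, adjusted p = 2.33e-06) and ETS1 with a difference of 3.64 (adjusted p = 9.39e-06). BMPR2, the bone morphogenetic protein receptor known from inherited pulmonary hypertension, had 42.3, 47.8 and 40.4 FPKM in lung, against 5.94, 8.21 and 2.15 in stomach (difference 2.92, adjusted p = 3.39e-06) and was above its mean of 8.15 FPKM in brain, the highest of the other 6 tissues. MECOM, a zinc finger factor of arterial endothelium that is also expressed in gastric epithelium, had 44, 31.5 and 43.2 FPKM in lung, against 241, 196 and 180.2 in stomach (difference -2.35, adjusted p = 2.52e-06). The summed FPKM of the list was 969 to 1280 in lung and 613 to 694 in stomach. That separation rested on FLI1, whose values are taken up in the next paragraph. Without FLI1 the sums were 434, 645 and 573 in lung, against 618, 585 and 607 in stomach, and the organs overlapped. Some calls rested on single libraries. ENG (adjusted p = 0.0116) was not called without lung replicate 3 (adjusted p = 0.0909), without stomach replicate 2 (adjusted p = 0.0536) or without stomach replicate 3 (adjusted p = 0.054). ELK3 (adjusted p = 0.046) was not called without lung replicate 2 (adjusted p = 0.102), without lung replicate 3 (adjusted p = 0.219), without stomach replicate 2 (adjusted p = 0.247) or without stomach replicate 3 (adjusted p = 0.0654). CLDN5 (adjusted p = 0.0168) was not called without lung replicate 3 (adjusted p = 0.0963). KLF4 (adjusted p = 0.0374) was not called without lung replicate 1 (adjusted p = 0.24), without stomach replicate 1 (adjusted p = 0.0704), without stomach replicate 2 (adjusted p = 0.0735) or without stomach replicate 3 (adjusted p = 0.102).

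SENCR, the long noncoding RNA gene that the transgene carries, had 68.4, 32.6 and 64 FPKM in lung, against 13.2, 4.64 and 14.3 in stomach (difference 2.32 ± 0.59, limma adjusted p = 0.00651), from 102 reads in lung and 12 in stomach. FLI1, an ETS factor of endothelium and blood, had 846, 325 and 524 FPKM in lung, against 76.3, 27.7 and 51.5 in stomach (difference 3.43, adjusted p = 9.56e-05). Lung replicate 2 was the lowest lung library and stomach replicate 2 the lowest stomach library for both genes. SENCR and FLI1 overlap on opposite strands. Whether reads were counted by strand is not stated in the labels, and mouse and transgene copies of FLI1 share a row, so that these values cannot be separated by source.

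White blood cell factors were higher in lung in 4 of 12 tested lymphoid genes and 3 of 6 myeloid genes, against 11.3% of all genes. SPI1, the ETS factor of macrophages and B cells, had 131, 93.2 and 94 FPKM in lung, against 13.3, 7.79 and 8.39 in stomach (difference 3.32 ± 0.45, limma adjusted p = 1.61e-05). CEBPB, a myeloid and acute-phase factor, had 57.6, 95.5 and 115 FPKM in lung, against 11.3, 21.4 and 21.1 in stomach (difference 2.25, adjusted p = 0.000121). PAX5, the B cell identity factor, had 4.73, 17.4 and 14.3 FPKM in lung, against 0, 0 and 0 in stomach (difference 3.55, adjusted p = 2.13e-06), with 154 reads in lung and none in stomach. IKZF1, POU2F2 and TCF7 were the other lymphoid genes called. PPARG, a factor of alveolar macrophages and fat cells, went the other way, with 1.53, 1.71 and 4.4 FPKM in lung, against 41.1, 22.1 and 15.7 in stomach (difference -2.93, adjusted p = 0.00149). The summed FPKM of the myeloid list was 276 to 302 in lung and 70.7 to 92.5 in stomach, while that of the lymphoid list overlapped, at 41.8 to 84.7 in lung and 48.9 to 66.5 in stomach.

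Smooth muscle genes were lower in lung in 5 of 19 tested members, against 5.66% of all genes, and higher in 2, or in 3 without lung replicate 1. The 2 higher members are near the 11.3% of all genes called higher. ACTG2, the enteric gamma actin of visceral smooth muscle, had 11.5, 21.5 and 13.8 FPKM in lung, against 212, 192 and 165 in stomach (difference -3.56 ± 0.51, limma adjusted p = 2.82e-05). HAND2, a basic helix-loop-helix factor of gut mesenchyme, enteric neurons and heart, had 0.779, 0.724 and 0 FPKM in lung, against 20.9, 13 and 18.7 in stomach (difference -3.65, adjusted p = 0.00045). KCNMA1, the large calcium-activated potassium channel, and PDLIM3, a Z-disc protein, were lower in lung, with differences of -1.56 and -1.60 (adjusted p = 5.96e-05 and 0.00154). The smooth muscle myosin MYH11 was at 13.04 to 21.2 FPKM in lung and 13.9 to 25.1 in stomach and was not called (difference -0.21, adjusted p = 0.715). ACTA2 rested on 2 reads in lung and 5 in stomach, and its difference of -1.17 became -0.80 without lung replicate 3 and -0.83 without stomach replicate 2. PDE5A, the cyclic GMP phosphodiesterase of lung vessels, was higher in lung by 1.98 (adjusted p = 0.000228), with PRKG1 near the threshold (adjusted p = 0.0478) and not called without lung replicate 2 (adjusted p = 0.145), without lung replicate 3 (adjusted p = 0.132), without stomach replicate 1 (adjusted p = 0.119) or without stomach replicate 3 (adjusted p = 0.23). Matrix genes were higher in lung in 7 of 15 members, against 11.3% of all genes, among them FBLN5, an elastic fibre protein, with 40.1, 33 and 44 FPKM in lung, against 5.1, 3.59 and 2.21 in stomach (difference 3.15, adjusted p = 4e-06), and SPARC, a collagen-binding matrix protein, with 349.8, 428 and 354 FPKM in lung, against 116, 106 and 116 in stomach (difference 1.73, adjusted p = 6.4e-05).

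Signalling genes of foregut development were higher in lung in 11 of 35 tested members and lower in 5, against 11.3% and 5.66% of all genes. The count of lower genes was 2 without lung replicate 1 and 3 without stomach replicate 2 or 3. Among ligands, VEGFA, the endothelial growth factor, had 637, 1029 and 832 FPKM in lung, against 53.1, 35.7 and 73.2 in stomach, with a lung mean 15.4-fold higher (difference 3.95 ± 0.30, limma adjusted p = 8.25e-09). WNT2, a ligand of the lung mesenchyme, had 4.5, 17.2 and 13.5 FPKM in lung, against 0, 0 and 0 in stomach (difference 3.5, adjusted p = 2.5e-05). BMP2, a bone morphogenetic protein, was lower in lung, with 0, 2.84 and 0.586 FPKM in lung, against 30.8, 26.3 and 25.1 in stomach (difference -3.95, adjusted p = 3.1e-05). VEGFA and WNT2 did not overlap between organs, and neither did BMP2. FGF18, RSPO1, WNT7A and TGFB3 were further ligands higher in lung, by 2.73, 2.12, 1.94 and 2.66 (adjusted p = 0.000789, 5.41e-07, 0.00196 and 7.14e-05). Among receptors, FGFR2, which binds FGF10 in the lung bud, had 23.3, 31.5 and 35.3 FPKM in lung, against 7.12, 11.5 and 7.29 in stomach (difference 1.70, adjusted p = 0.00342). FGFR3 was at 2.91 to 4.18 FPKM in lung and 0 in stomach (difference 2.13, adjusted p = 1.82e-05). SFRP1, a secreted Wnt inhibitor, was lower in lung (difference -1.78, adjusted p = 0.0061). SHH, the hedgehog ligand of foregut epithelium, was low in both organs, 0.549, 2.04 and 1.58 FPKM in lung, against 4.33, 3.05 and 4.69 in stomach, and its difference of -1.11 (adjusted p = 0.00101) became -0.83 without lung replicate 1. BMP4 was higher in lung by 1.34 (adjusted p = 0.0204) but was not called without lung replicate 2 (adjusted p = 0.0571), without lung replicate 3 (adjusted p = 0.0683), without stomach replicate 1 (adjusted p = 0.0731) or without stomach replicate 2 (adjusted p = 0.0587).

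Several broad groups showed no calls. None of 44 ribosomal protein genes, 11 mitochondrially encoded genes, 8 hepatocyte genes or 3 mesothelium genes tested was called in either direction by limma, although 3 ribosomal and 2 mesothelium genes, and 0 of the others, had an unadjusted p under 0.05. With voom on recovered reads 1 hepatocyte gene was called lower and none of the others was called. Apart from the ribosomal genes, these groups held few reads, so the lack of calls says little of them. The mitochondrially encoded list had 2, 4 and 10 reads in lung, against 1, 3 and 5 in stomach. The hepatocyte list had 0, 1 and 1, against 0, 0 and 17, and the mesothelium list 2, 16 and 19, against 1, 1 and 1. Of 21 immediate early and heat shock genes, DUSP1 and IER5 were higher in lung and NR4A2 and KLF4 lower, against 11.3% of all genes called higher and 5.66% called lower. DUSP1, a stress-induced phosphatase, had 46.3, 111 and 135 FPKM in lung, against 3.4, 8.97 and 11 in stomach (difference 3.47 ± 0.78, limma adjusted p = 0.00217). IER5 (adjusted p = 0.0192) was not called without lung replicate 2 (adjusted p = 0.109), without stomach replicate 1 (adjusted p = 0.0544) or without stomach replicate 3 (adjusted p = 0.08), and NR4A2 (adjusted p = 0.0384) was not called without lung replicate 1 (adjusted p = 0.172), without stomach replicate 1 (adjusted p = 0.0621), without stomach replicate 2 (adjusted p = 0.0927) or without stomach replicate 3 (adjusted p = 0.0939). Of 7 proliferation genes 1 was called, TUBB (adjusted p = 0.0428), and not without lung replicate 2 (adjusted p = 0.241), without lung replicate 3 (adjusted p = 0.0598), without stomach replicate 1 (adjusted p = 0.154) or without stomach replicate 3 (adjusted p = 0.146).

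Some genes were higher in both organs than in any other tissue. The mean of lung and stomach was above the mean of the other 6 tissues for 332 of 4260 genes (7.79%) and below it for 127 (2.98%) at the same thresholds. For 12 genes (0.282%) every lung and stomach library exceeded every other library, and those with the largest differences included SFN, ESRP1, CASZ1, JUP, HES1, EPAS1 and SOX4. Between the organs, SFN and ESRP1 were called lower in lung, and EPAS1 and SOX4 higher. The call of SFN (limma adjusted p = 0.0415) ended without each of the lung and stomach libraries in turn. EPAS1 rested on 4, 1 and 1 reads in stomach, at 0.552 FPKM or more, against at most 0.528 elsewhere. ESRP1, the splicing regulator of epithelial cells, had 14.3, 7.15 and 19 FPKM in lung and 93.6, 69.4 and 53.6 in stomach. Any library of the other tissues had at most 6.57. Its mean of both organs was 4.36 ± 0.21 above that of the other 6 tissues (limma adjusted p = 4.83e-12). SFN, 14-3-3 sigma of stratified and simple epithelium, had 61.3, 33.9 and 65.1 FPKM in lung and 251, 214 and 159 in stomach. It had at most 33.6 elsewhere, and both organs were 4.70 above the other 6 tissues (adjusted p = 1.49e-08). CASZ1, a zinc finger factor, had 20.8, 22.4 and 21.1 FPKM in lung and 23.1, 25.9 and 27.5 in stomach. It had at most 12.9 elsewhere, and both organs were 2.81 above the other 6 tissues (adjusted p = 8.31e-09). Lung minus stomach it differed by -0.24 and was not called (adjusted p = 0.745). JUP, the junction protein plakoglobin, was at 17.6 FPKM or more in lung and 10.9 or more in stomach, against at most 6.04 elsewhere. Across the 28 pairs of tissues, lung and stomach had the third fewest genes called, after aorta and lung with 560 (13.1%) and kidney and stomach with 697 (16.4%). The correlation of their mean log2(FPKM + 1) across 4260 genes was 0.919, against 0.691 to 0.927 over all pairs, as a description over genes that share libraries, depth and alignment.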

How the data were processed

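RNA was isolated with TRIzol, and sequencing libraries came from the VAHTS Universal V10 kit, per the labels' protocols. The submitters' processing notes name fastp, HISAT2, HTSeq and the human build GRCh38.p13, without versions; annotation and strandedness are not stated there. The authors deposited FPKM values of 7493 genes, and 91.4% of the symbols are also mouse symbols, ignoring case. No further scaling was applied. Every value column of the table was mapped to a sample by its library name.

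From these, log2(FPKM + 1) was fitted with limma 3.58.1 in R 4.3.3 as 8 tissue means over 24 libraries with a mean-variance trend, for 4260 genes of at least 1 FPKM in at least 3 libraries, with Benjamini-Hochberg adjustment. Differences on this scale understate the change of low genes. The 24 libraries share 1 estimate of the spread because each tissue has only 3. Tissues where a gene has no read add no spread. Standard errors and p-values of genes read almost only in 1 organ can therefore be too small. Read numbers were recovered as whole multiples of each gene's FPKM step, within a relative tolerance of 1e-06. They served to state depth, for thinning and for voom, and intervals or floors from them cover counting error only, since reads with no molecular identifiers need not be independent molecules. The scripts were tested on simulated data.

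Named genes are NKX2-1, BARX1, the 12 called genes per direction with the largest difference, no overlap and at least 20 reads in the higher organ, 8 genes shared by both organs, called transcription factors of the lists, and other list members, some of them picked as examples with their values in view. Some genes that the rule or the lists include are not reported here. The members and lists were chosen with earlier results of these data known. Alternatives were other pseudocounts, filters and scalings, a replicate block, other spread settings, voom, thinning and each library left out; leaving out aorta replicates 1 and 3, filtering and fitting the 6 libraries alone, and list sums without FLI1 were chosen after seeing the data. Python 3.11.15, numpy 2.4.6, pandas 2.3.3 and matplotlib 3.10.9 were used.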

Additional observations from a re-analysis of the deposited data

How the results depend on the processing

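No called difference of a named gene changed sign under any of 24 alternatives; 57 named genes that were not called did under at least 1 of them, among them SOX2 and TUBB4B, and none was called there. Counts of lung against stomach were within 1.5 times the main ones, 483 higher and 241 lower, except with a pseudocount of 5 (270 higher, 159 lower) and no minimum difference (384 lower). Leaving out each of the 6 libraries in turn gave 390 to 496 higher and 215 to 243 lower. Lung and stomach against the other 6 tissues gave 332 higher and 127 lower; the counts moved with a pseudocount of 0.1 (292 lower) or 5 (146 higher, 35 lower), a filter on the 6 libraries (45 lower), TPM scaling (243 lower), no minimum difference (863 higher, 611 lower) and voom on recovered reads (500 higher, 292 lower), and ran from 312 to 352 higher and 117 to 139 lower without each library. The cause was not tested. TPM scaling, which gave 560 higher and 207 lower, moved the median difference of all genes to 0.22, against 0.10 as deposited. Same-numbered lung and stomach libraries deviated together weakly (r = 0.089, 0.045 and 0.011), so the numbers were not taken as pairs, although in 3 of 3 cases a lung library correlated best with the stomach library of its own number; a replicate block gave 486 higher and 246 lower and kept 713 of the 724 calls. Among 339 named genes tested, the block ended 1 call and added 2, a pseudocount of 5 ended 35, the spread of the 6 libraries alone 33, and no alternative trend setting ended any. Stomach libraries of 269941 to 332406 reads limit genes of low level, since a gene at 0 may still stand for up to 3 reads.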

Other observations

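All genes given here were chosen after their values were seen, for functions not covered above. Several were higher in lung. ACE, the angiotensin-converting enzyme of capillary endothelium, had 6.3, 15.4 and 10.9 FPKM in lung, against 0, 0 and 0 in stomach (difference 3.49 ± 0.32, limma adjusted p = 1.07e-07). ANGPT1, the ligand of the receptor TEK, had 8.93, 20.7 and 17.1 FPKM in lung, against 0, 0 and 0 in stomach (difference 3.98, adjusted p = 4.13e-07). EFNB2, an ephrin of arterial endothelium, had 114, 127 and 155 FPKM in lung, against 13, 13.3 and 11 in stomach (difference 3.30, adjusted p = 1.12e-08). The lung libraries held 87 reads of ACE and 99 of ANGPT1, and the stomach libraries held none of either. MSN, the membrane linker moesin, had 564, 523 and 446 FPKM in lung, against 32.7, 31.4 and 29.8 in stomach, and its libraries lay close together within each organ (difference 3.98, adjusted p = 3.14e-10). TSPAN7, a tetraspanin, was higher in lung by 3.89 (adjusted p = 3.14e-06), and TIMP3, an inhibitor of matrix proteases, by 3.60 (adjusted p = 2.51e-05). SCUBE2, a secreted protein that helps release hedgehog ligands, had 7.68, 31.6 and 19.2 FPKM in lung, against 0.466, 0.82 and 0 in stomach (difference 3.69, adjusted p = 2.45e-07).

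Others were lower in lung. STARD10, a phospholipid transfer protein, had 303, 276 and 303 FPKM in lung, against 2414, 2323 and 3254 in stomach (difference -3.16 ± 0.21, limma adjusted p = 1.54e-09). HMGCS1, an enzyme of cholesterol synthesis, had 0.336, 1.25 and 0.643 FPKM in lung, against 8.996, 13 and 10.9 in stomach (difference -2.80, adjusted p = 0.00142). Neither gene overlapped between the organs. SLC7A8, a neutral amino acid transporter, had 0.465, 0.432 and 2.67 FPKM in lung, against 30.04, 29.7 and 34.9 in stomach (difference -4.04, adjusted p = 1.49e-07), and its highest mean elsewhere was 86.3 FPKM in kidney. SYTL4, a protein of secretory granules, and ADGRG2, an adhesion G protein-coupled receptor, were lower in lung, with differences of -3.07 and -4.03 (adjusted p = 3.37e-06 and 1.01e-07). KRT17, a keratin of stratified epithelium, had 2.86, 0 and 4.11 FPKM in lung, against 56.3, 57.5 and 14.7 in stomach (difference -3.79, adjusted p = 3.99e-06), and stomach replicate 3 was again the lowest stomach library.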
